A study of Mus musculus with 6 samples.

Results

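Ephrins and their Eph receptors were examined in isolated lung endothelial cells (iLECs) of control and *Atp6ap2* iECKO mice. The members were 10 genes taken by symbol from the 24972 gene symbols of the table: the ephrin-A ligands *Efna1*, *Efna4* and *Efna5*, the ephrin-B ligands *Efnb1* and *Efnb2*, the EphA receptors *Epha2* and *Epha4*, and the EphB receptors *Ephb2*, *Ephb3* and *Ephb4*. All 10 were present and all 10 passed the filter on low values. The other 12 mouse Eph and ephrin genes and 46 genes of Eph signalling were measured beside them.

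Ephrins are ligands that stay on the cell surface, so that they signal between cells that touch. Ephrin-A proteins are held by a lipid anchor and mostly bind EphA receptors, whereas ephrin-B proteins span the membrane, mostly bind EphB receptors and can also signal into the cell that carries them. In blood vessels *Efnb2* is a classical marker of arterial endothelium and of sprouting cells, and its receptor *Ephb4* is a marker of venous endothelium. The pair is known for keeping arteries and veins apart and for guiding sprouts, and *Efna1* with its receptor *Epha2* is known from angiogenesis and from epithelium.

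iLECs were CD31-positive cells, pulled at P7 out of enzyme-treated lung tissue by beads coated with antibody, 3 samples per genotype, each sequenced as 1 mRNA library. Control samples were labelled with the genotype PRR (Atp6ap2)fl/Y and carried no Cre. The *Atp6ap2* iECKO samples carried the same floxed allele with Cdh5-CreERT2, a Cre that tamoxifen activates and that the endothelial *Cdh5* promoter drives, so deletion was limited to cells that use this promoter. Both groups were given 100 μg tamoxifen on P1 to P3, and the groups differed in the Cre transgene as well as in the deletion. The labels give the strain C57BL/6, and the methods of the study describe a mixed background with CD1.

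Values are normalized counts, which are estimated counts per gene that the authors had scaled between libraries, and their totals were between 26243878 and 28725799. The commonest low value, which reflects what a read was worth, placed the *Atp6ap2* iECKO libraries at 1.25 to 1.55 times the depth of the shallowest library and the controls at 1.00 to 1.04 times. *Atp6ap2*, the targeted gene, had 7490, 5815 and 5681 in controls against 4220, 2336 and 1982 in *Atp6ap2* iECKO iLECs (replicates 1, 2 and 3), which did not overlap (adjusted *P* = 0.0306, limma). With 1 library left out the adjusted *P* value was 0.00604 without *Atp6ap2* iECKO replicate 1 and above 0.05 without any 1 of the others, up to 0.103. All samples are labelled fl/Y, but *Xist*, the RNA of the inactive X chromosome, was between 37704 and 47487 in 4 libraries and far lower in control replicate 3 (31.7) and *Atp6ap2* iECKO replicate 2 (19.3). The study used neonates of both sexes, with fl/fl mice among its controls, so the label fl/Y is in doubt for the 4 libraries with high *Xist*. Of 15 endothelial markers, 1 was lower and 0 were higher, and their summed level was 345307 to 437247 in controls against 361348 to 410514 in *Atp6ap2* iECKO iLECs. Of 14 tested fibroblast markers 12 were lower, with sums of 93396 to 145121 in controls against 32539 to 46452 in *Atp6ap2* iECKO iLECs. Of 15 mural markers 9 were lower, with sums of 14524 to 22067 against 5969 to 7612. Sums of 16 epithelial markers (1 higher) and 18 leukocyte markers (0 called by limma, and 0 with an unadjusted *P* value below 0.05) overlapped, and those of 11 genes that respond to tissue dissociation (1 lower) were 162161 to 197894 against 117579 to 149365. No gene of the fibroblast or mural list was at 0 in every library. In bulk RNA, fewer cells of a type and less RNA per cell cannot be told apart. Genes that overlap on opposite strands also could not be separated, since the library kit does not mark strand.

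Of the 10 genes, 3 were lower in *Atp6ap2* iECKO iLECs at an adjusted *P* value below 0.05, all of them ligands: *Efnb2*, *Efna1* and *Efnb1*. None was higher. The receptor *Ephb3* had a larger fall (log2 fold change -1.07) and just missed the threshold (adjusted *P* = 0.0509, limma). Outside the 10 genes, the 3 other family genes called as lower were all receptors. Of all 14456 genes tested, 8.25% were called, 4.97% as lower and 3.28% as higher. Without adjustment 6 of the 10 genes had a *P* value below 0.05, as did 23.9% of all genes tested. The *Atp6ap2* iECKO libraries lay below all controls for 5 of the 10 genes, where this held for 15.0% of all genes tested (29.8% in either direction). The 10 genes had a median log2 fold change of -0.37, against 0.0049 for all genes tested. The fibroblast, mural and dissociation lists and the sequencing depth also differed without overlap between the genotypes, and their part in the values of the 10 genes was not tested.

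**Figure D1:**
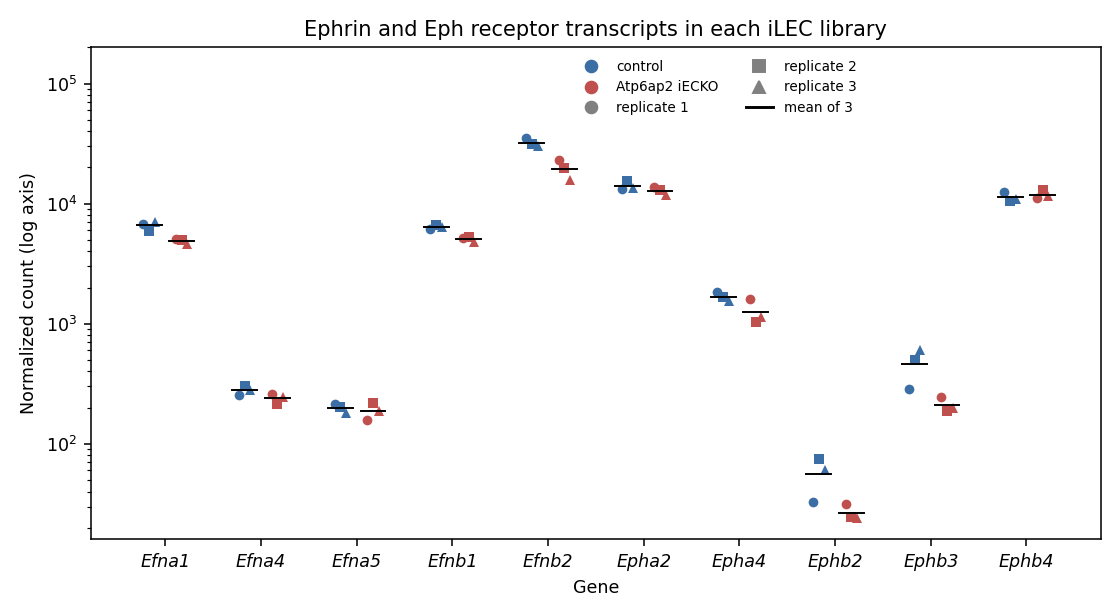
Normalized count of the 10 ephrin and Eph receptor genes (log axis) in each of the 6 iLEC libraries, with control libraries in blue, *Atp6ap2* iECKO libraries in red, a marker shape per replicate number and a line at the mean of 3. *Efnb2* has the highest counts, with all red points (15838 to 23029) under all blue points (30266 to 34841), and *Ephb4* shows points of both genotypes at the same height.

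*Efnb2*, the ligand of EphB4, lies on chromosome 8 of GRCm38 from 8617434 to 8661242. Its normalized counts were 34841, 31325 and 30266 in controls against 23029, 19646 and 15838 in *Atp6ap2* iECKO iLECs (replicates 1, 2 and 3). The genotypes did not overlap, and within the *Atp6ap2* iECKO group the order of the libraries was that of their *Atp6ap2* counts. The summed fibroblast markers (46452, 35830 and 32539) and mural markers had this same order in that group. Among controls *Efnb2* again had the order of *Atp6ap2*, but the marker sums did not. Fibroblast sums there were 93396, 145121 and 128151 and mural sums 14524, 21178 and 22067, both lowest in replicate 1, where *Efnb2* was highest. A link of *Efnb2* to any of them was not tested. *Efnb2* fell by 0.73 on the log2 scale, to 0.601 of the control level (standard error 0.15, adjusted *P* = 0.0256, limma). The exact permutation test gave a two-sided *P* of 0.1, the smallest that 3 samples against 3 allow, here and for each other gene whose genotypes did not overlap. In the 4 libraries with *Xist* the log2 fold change was -0.79 (adjusted *P* = 0.179). Leaving out *Atp6ap2* iECKO replicate 1, which kept the most *Atp6ap2*, gave -0.86 (adjusted *P* = 0.0197). Leaving out any 1 of the other 5 libraries took the adjusted *P* value above 0.05, to between 0.0554 without control replicate 1 and 0.0869 without *Atp6ap2* iECKO replicate 2.

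*Efnb1*, the other ephrin-B ligand, lies on the X chromosome from 99136130 to 99148991. Its normalized counts were 6088, 6576 and 6351 in controls and 5178, 5295 and 4746 in *Atp6ap2* iECKO iLECs. The groups did not overlap, and their nearest libraries were control replicate 1 and *Atp6ap2* iECKO replicate 2. *Efnb1* fell by 0.32 on the log2 scale (standard error 0.078, adjusted *P* = 0.0458, limma). This call was near the threshold: with library totals made equal the log2 fold change was -0.28 (adjusted *P* = 0.0652), with *Xist* as a covariate the adjusted *P* value was 0.0842, and with 1 library left out it was between 0.0546 and 0.178. Of the libraries with little *Xist* RNA, control replicate 3 lay between the other controls for this X-linked gene, and *Atp6ap2* iECKO replicate 2 was the highest of its group.

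*Efna1*, a ligand of EphA2 on chromosome 3 from 89271733 to 89281142, had normalized counts of 6803, 5922 and 7061 in controls and of 5109, 4973 and 4603 in *Atp6ap2* iECKO iLECs. Every *Atp6ap2* iECKO library was below every control. *Efna1* fell by 0.43 on the log2 scale, to 0.744 of the control level (standard error 0.092, adjusted *P* = 0.0321, limma). The adjusted *P* value was 0.0517 with *Xist* as a covariate. It was 0.027 without control replicate 2, the lowest control, and between 0.052 and 0.126 without any 1 of the other 5 libraries.

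The 2 remaining ephrin-A genes were low. *Efna4*, which lies near *Efna1* on chromosome 3, had 253.5, 301.9 and 278.1 in controls and 260.4, 214.3 and 243.6 in *Atp6ap2* iECKO iLECs, and the groups overlapped. Its log2 fold change was -0.21 with a 95% interval from -0.56 to 0.13 (adjusted *P* = 0.442, limma). *Efna4* shares up to 168 bases of an exon with an antisense gene, *4731419I09Rik*, for which no value was found under this symbol, so the level of *Efna4* is uncertain. *Efna5*, a ligand that binds EphA receptors and also EphB2, had 213.3, 201.1 and 178.6 in controls and 157.1, 218.9 and 186.6 in *Atp6ap2* iECKO iLECs. *Atp6ap2* iECKO replicate 2 was the highest library of all for *Efna5* and replicate 1 the lowest, and the log2 fold change was -0.085 (interval from -0.51 to 0.34).

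The DNA before the transcription starts of the 3 ligands that fell together is shown beside that of *Ephb4*, whose level overlapped between genotypes. Each sequence is the 250 bases before a start in RefSeq (GRCm38.p6), read 5′ to 3′ on the gene's strand. *Efnb2* is at chr8:8661243-8661492 on the minus strand, *Efnb1* at chrX:99135811-99136060 on the plus strand, *Efna1* at chr3:89280952-89281201 and chr3:89279646-89279895 on the minus strand and *Ephb4* at chr5:137349859-137350108 on the plus strand. Capitals mark matches, on either strand, of TGGGAA (the core bound by the Notch partner RBPJ), TATAAA and GGGCGG (an SP1 core).
*Efnb2*: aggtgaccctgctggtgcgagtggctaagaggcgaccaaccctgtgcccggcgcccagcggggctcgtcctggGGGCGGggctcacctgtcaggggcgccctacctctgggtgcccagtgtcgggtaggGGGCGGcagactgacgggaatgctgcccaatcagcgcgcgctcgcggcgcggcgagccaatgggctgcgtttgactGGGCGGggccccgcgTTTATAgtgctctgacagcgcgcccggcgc
*Efnb1*: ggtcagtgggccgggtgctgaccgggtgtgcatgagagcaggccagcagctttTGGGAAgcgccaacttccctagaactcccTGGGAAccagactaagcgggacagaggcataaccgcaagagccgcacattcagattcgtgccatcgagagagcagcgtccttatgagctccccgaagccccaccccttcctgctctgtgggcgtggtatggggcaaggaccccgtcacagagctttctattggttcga
*Efna1*, upstream start: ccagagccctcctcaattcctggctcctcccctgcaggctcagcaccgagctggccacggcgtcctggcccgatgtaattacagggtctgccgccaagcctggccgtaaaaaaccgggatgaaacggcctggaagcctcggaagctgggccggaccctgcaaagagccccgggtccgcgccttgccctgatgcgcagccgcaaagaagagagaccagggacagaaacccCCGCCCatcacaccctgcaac
*Efna1*, downstream start: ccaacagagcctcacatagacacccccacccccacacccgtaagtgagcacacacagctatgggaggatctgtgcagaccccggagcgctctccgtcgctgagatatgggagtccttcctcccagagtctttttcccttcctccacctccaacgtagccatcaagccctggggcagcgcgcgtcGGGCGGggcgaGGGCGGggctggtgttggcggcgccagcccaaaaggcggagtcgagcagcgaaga
*Ephb4*: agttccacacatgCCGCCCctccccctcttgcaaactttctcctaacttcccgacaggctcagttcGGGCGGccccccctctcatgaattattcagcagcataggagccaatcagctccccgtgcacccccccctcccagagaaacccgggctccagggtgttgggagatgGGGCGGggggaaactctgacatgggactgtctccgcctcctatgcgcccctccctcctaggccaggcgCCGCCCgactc

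All 10 genes were matched in the RefSeq table, with 11 starts because *Efna1* has a pair of them. The *Efnb2* sequence held 1 TATAAA on the opposite strand, beginning 30 bases before the start, and 3 GGGCGG matches, which 12.4% and 32.7% of 32851 promoters hold at least once. The *Efnb1* sequence held TGGGAA at 2 places, as 21.6% of promoters hold at least once, and no GGGCGG match. The *Efna1* sequences held 1 and 2 GGGCGG matches, and *Ephb4* held 4. Thus no one of these 3 motifs was present before all starts of the ligands that fell. CACGTG (an E-box), CCGGAAG (an ETS core) and TGANTCA (an AP-1 core), which 6.02%, 6.91% and 6.75% of promoters hold, were found before 0 of the 11 starts. The G and C content was 72.0% for *Efnb2*, 60.0% for *Efnb1*, 64.8% and 64.4% for *Efna1* (upstream and downstream start) and 64.0% for *Ephb4*, against a median of 52.4% over all promoters. A match of letters is a description of the sequence and does not show that a factor binds there.

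Among the receptors, *Ephb4* and *Epha2* were abundant and did not pass the test. *Ephb4*, the receptor of ephrin-B2 on chromosome 5 from 137350109 to 137378669, had normalized counts of 12372, 10561 and 10846 in controls and of 11053, 13032 and 11486 in *Atp6ap2* iECKO iLECs. The highest library was an *Atp6ap2* iECKO library and the groups overlapped. The log2 fold change was 0.074 with a 95% interval from -0.16 to 0.31 (adjusted *P* = 0.713, limma). *Ephb4* shares up to 33 bases of an exon with *Zan* on the other strand, whose mean was 20.1 in controls and 25.3 in *Atp6ap2* iECKO iLECs. *Epha2*, the main receptor of ephrin-A1, had 13224, 15374 and 13469 in controls and 13655, 12977 and 11766 in *Atp6ap2* iECKO iLECs. Its log2 fold change was -0.13 (interval from -0.36 to 0.097, adjusted *P* = 0.476).

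Within each library, *Efnb2* had 2.82, 2.97 and 2.79 times the normalized count of *Ephb4* in controls. In *Atp6ap2* iECKO replicates 1, 2 and 3 it had 2.08, 1.51 and 1.38 times. All 3 ratios were below those of the controls, and this difference between the genes was not tested. These ratios compare libraries, not the amounts of the 2 transcripts, since they were not divided by length.

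*Epha4*, a receptor that binds both ephrin-A and ephrin-B ligands, had 1827, 1679 and 1538 in controls and 1608, 1025 and 1130 in *Atp6ap2* iECKO iLECs. *Atp6ap2* iECKO replicate 1 lay among the controls and the other two lay below them. The log2 fold change was -0.45 (interval from -0.83 to -0.065, adjusted *P* = 0.147, limma). Without *Atp6ap2* iECKO replicate 1 it was -0.64 (adjusted *P* = 0.0228).

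*Ephb3* and *Ephb2*, EphB receptors that also bind ephrin-B ligands, were lower in level than *Epha2*, *Epha4* and *Ephb4*. They had the widest intervals of the 10 genes. *Ephb3* had 285.3, 493.7 and 604.5 in controls and 244.3, 187.9 and 198.7 in *Atp6ap2* iECKO iLECs. The groups did not overlap, but control replicate 1 was nearer to the *Atp6ap2* iECKO libraries than to the other controls. The log2 fold change was -1.07 (standard error 0.27), with an adjusted *P* value of 0.0509 from limma that missed the threshold. It was -1.38 (adjusted *P* = 0.00956) without control replicate 1 and -0.77 (adjusted *P* = 0.306) in the 4 libraries with *Xist*. *Ephb2* had 32.6, 74.6 and 60.7 in controls and 31.4, 24.3 and 24.3 in *Atp6ap2* iECKO iLECs, with a log2 fold change of -0.97 (interval from -1.84 to -0.11, adjusted *P* = 0.162). Control replicate 1 was also the control with the lowest sums of fibroblast (93396) and mural (14524) markers. The part of these other cells in the values of *Ephb2* and *Ephb3* was not tested.

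**Figure D2:**
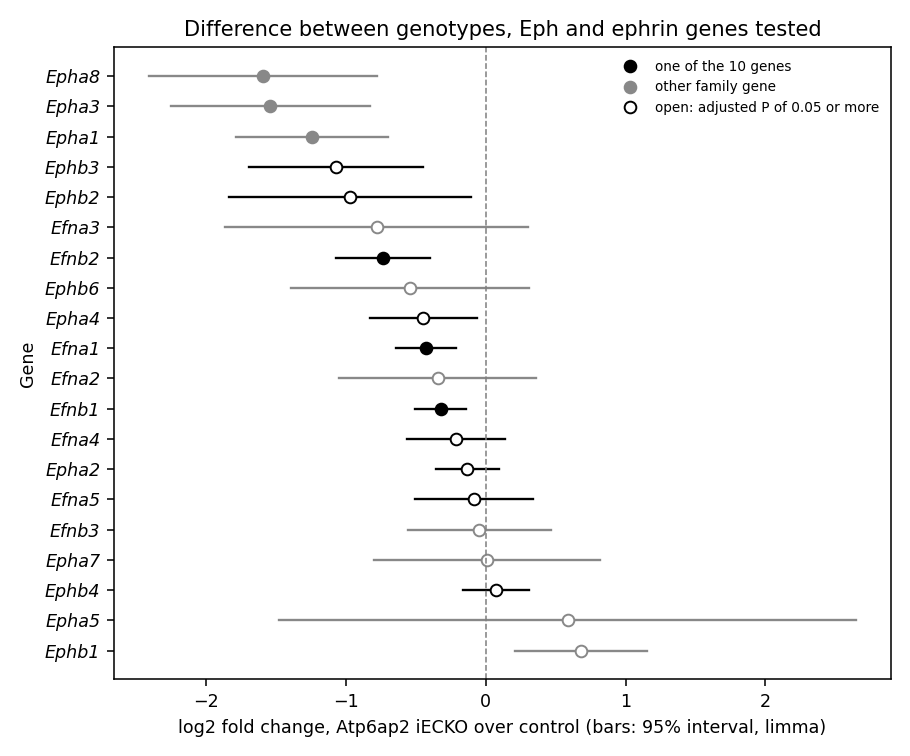
log2 fold change of the 20 Eph and ephrin genes tested, *Atp6ap2* iECKO over control, with 95% intervals from limma; black marks the 10 genes, gray the other family genes, and filled points have an adjusted *P* value below 0.05. The filled black points are *Efnb2* (-0.73), *Efna1* (-0.43) and *Efnb1* (-0.32), and the intervals of *Ephb4* and *Epha2* span 0.

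Levels can be compared between genes only per length, so normalized counts were divided by the exon length of each gene in kilobases. On this scale the 10 genes stood in controls in the order *Efnb2* (4689 ± 349, SD, n = 3), *Efna1* (3604 ± 326), *Epha2* (3000 ± 252), *Ephb4* (2427 ± 209.9), *Efnb1* (1836 ± 70.8), *Epha4* (208.8 ± 18.0), *Efna4* (173.7 ± 15.1), *Ephb3* (69.4 ± 24.4), *Efna5* (49.0 ± 4.37) and *Ephb2* (4.44 ± 1.69). The control libraries of *Efna1* and *Epha2* overlapped on this scale. Those of *Efnb2* and *Efna1* did not. In *Atp6ap2* iECKO iLECs the order was *Efnb2* (2845 ± 525), *Epha2* (2738 ± 205), *Efna1* (2675 ± 143) and *Ephb4* (2555 ± 224). Each of these overlapped the one after it down to *Ephb4*, which did not overlap *Efnb1*, the next in order. The 5 most abundant genes of the family in both genotypes were thus *Efnb2*, *Efna1*, *Epha2*, *Ephb4* and *Efnb1*.

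As a share of the summed level per kilobase of all 22 family genes, *Efnb2* made up 30.2%, 28.2% and 27.2% in controls and 24.6%, 21.5% and 19.6% in *Atp6ap2* iECKO iLECs. *Ephb4* made up 15.9%, 14.0% and 14.4% in controls and 17.4%, 21.1% and 21.0% in *Atp6ap2* iECKO iLECs. The ranges of the genotypes did not overlap for either gene. A share also moves when another member of the family changes. The summed level per kilobase of ephrin-B ligands was 6310 to 6882 in controls against 3733 to 4902 in *Atp6ap2* iECKO iLECs. That of EphB receptors was 2417 to 2774 against 2485 to 2933, which overlapped.

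**Figure D3:**
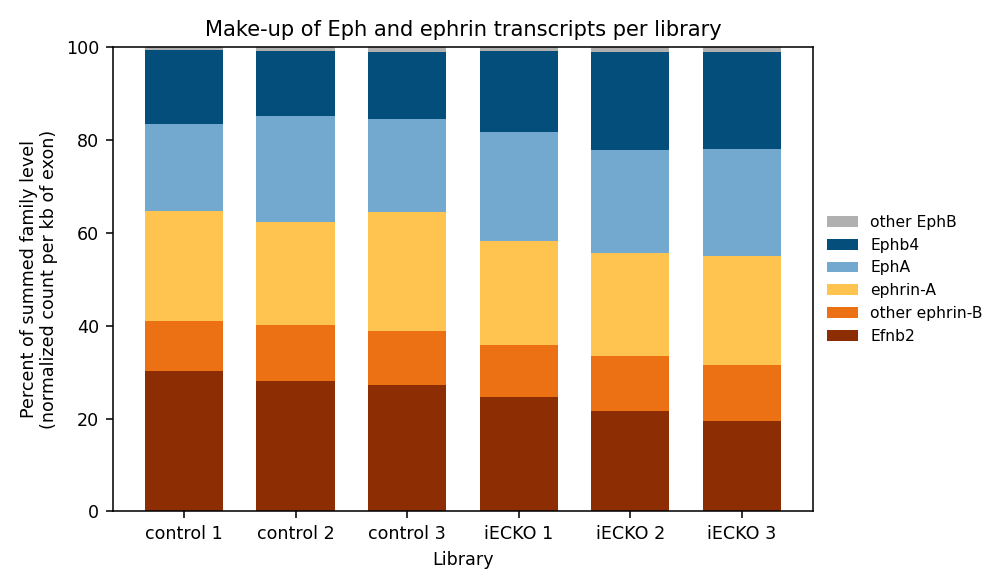
Percent of the summed level (normalized count per kilobase of exon) of the 22 Eph and ephrin genes in each library, stacked by *Efnb2*, other ephrin-B, ephrin-A, EphA, *Ephb4* and other EphB genes. The *Efnb2* share is 27.2% to 30.2% in controls and 19.6% to 24.6% in *Atp6ap2* iECKO libraries.

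Of the 12 other family genes, 10 were tested. *Epha6* was at 0 in every library and *Epha10* was at 0 in controls and at 3.07 or less in *Atp6ap2* iECKO iLECs. At an adjusted *P* value below 0.05, 3 were lower, all EphA receptors, and 0 were higher, against 4.97% and 3.28% of all genes tested. *Epha3* had 211.2, 446.5 and 330.2 in controls and 134.3, 115.7 and 79.9 in *Atp6ap2* iECKO iLECs (log2 fold change -1.54, standard error 0.31, adjusted *P* = 0.0263, limma). *Epha1* had 317.9, 532.4 and 568.1 in controls and 217.9, 193.0 and 170.4 in *Atp6ap2* iECKO iLECs (log2 fold change -1.24, standard error 0.23, adjusted *P* = 0.0221). *Epha8* was low, with 37.9, 60.7 and 53.9 in controls and 12.8, 15.3 and 20.2 in *Atp6ap2* iECKO iLECs (log2 fold change -1.59, standard error 0.35, adjusted *P* = 0.0346). In all 3 the groups did not overlap and control replicate 1 was the lowest control, as it was for the fibroblast and mural marker sums. A link to these sums was not tested. *Epha1* shares up to 156 bases of an exon with *Zyx* on the other strand, whose mean was 5295 in controls and 4946 in *Atp6ap2* iECKO iLECs, so its level is uncertain. When either of replicates 2 and 3 of either genotype was left out, limma called 0 of these 10 genes (4 had an unadjusted *P* value below 0.05 each time), with log2 fold changes of -1.09 to -1.25 for *Epha1*, -1.29 to -1.59 for *Epha3* and -1.46 to -1.76 for *Epha8*, and without control replicate 1 it called the same 3. Without *Atp6ap2* iECKO replicate 1 it called *Epha1* and *Epha3* but not *Epha8*. In the left-out fits that called 0 of these genes, 1.44% to 5.78% of all genes tested were called.

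*Ephb1*, an EphB receptor named after its values were seen, was the only family gene with all *Atp6ap2* iECKO libraries above all controls. It had 365.1, 287.3 and 258.9 in controls and 369.5, 565.0 and 539.2 in *Atp6ap2* iECKO iLECs. Replicate 1 of the *Atp6ap2* iECKO group was only just above the highest control. Its log2 fold change was 0.68 with a 95% interval from 0.21 to 1.15, and it did not pass (adjusted *P* = 0.0843, limma). Its exons also overlap those of *Gm26846* on the other strand, for which no value was found under this symbol. Without *Atp6ap2* iECKO replicate 1 the log2 fold change of *Ephb1* was 0.87 (adjusted *P* = 0.0373).

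**Figure D4:**
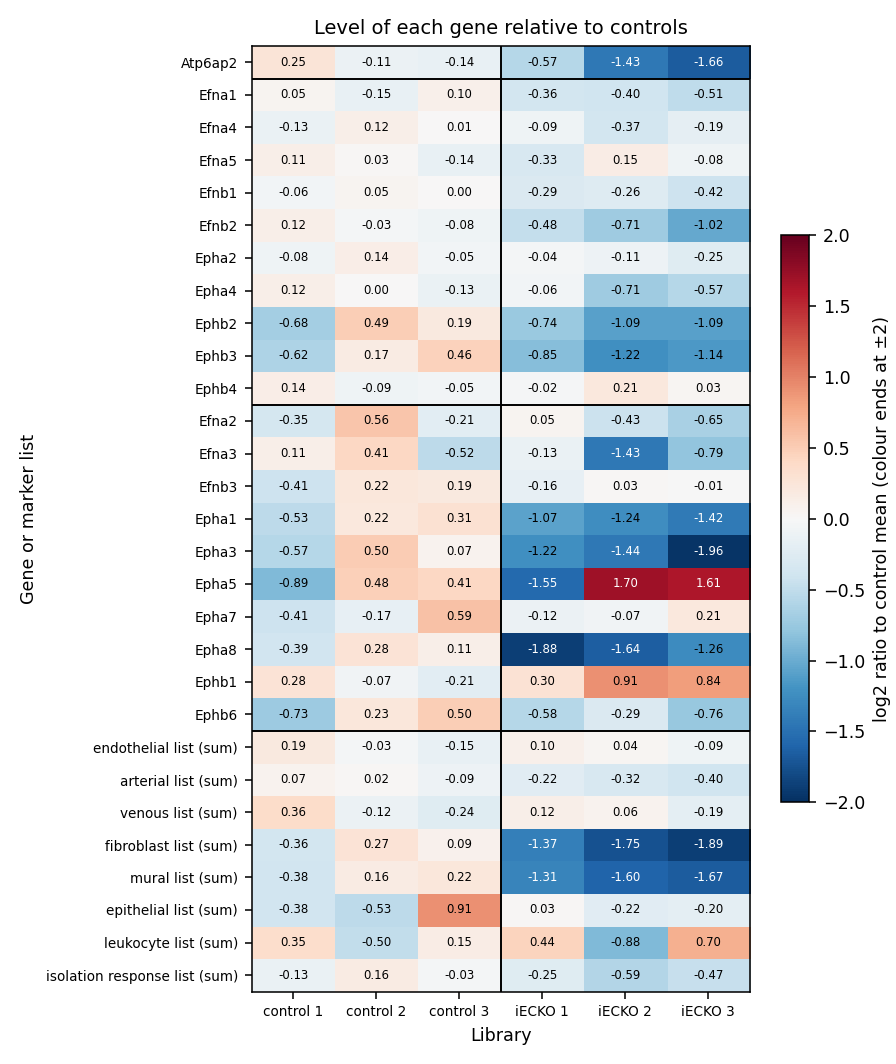
log2 ratio of each gene to its control mean in each library, with *Atp6ap2* on top, then the 10 genes, the other family genes tested and the summed levels of the marker lists; blue is lower and red higher, with colour ending at 2 in either direction. *Efnb2* runs from -0.48 to -1.02 in the *Atp6ap2* iECKO libraries, *Ephb4* from -0.02 to 0.21, the fibroblast list from -1.37 to -1.89 and the endothelial list from -0.09 to 0.10.

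The 46 genes of Eph signalling were adaptors, kinases, phosphatases, proteases and regulators of small GTPases, and all were tested. Of these, 3 were lower and 0 higher at an adjusted *P* value below 0.05, and the median log2 fold change was -0.096. Of all genes tested 4.97% were lower, so the count for this list is near that of genes in general. *Rgs3*, a regulator of G protein signalling of which a form binds the tail of ephrin-B, had 4726, 5402 and 5458 in controls and 3199, 2950 and 2692 in *Atp6ap2* iECKO iLECs (log2 fold change -0.82, standard error 0.096, adjusted *P* = 0.0083, limma). *Mmp14*, a membrane protease, had 10772, 10881 and 11833 in controls and 8418, 7629 and 6960 in *Atp6ap2* iECKO iLECs (log2 fold change -0.54, adjusted *P* = 0.0175). *Src*, a kinase that acts below ephrin-B and Eph receptors, had 675.3, 701.3 and 1039 in controls and 466.0, 530.1 and 399.8 in *Atp6ap2* iECKO iLECs (log2 fold change -0.77, adjusted *P* = 0.0458). The other 43 genes did not pass. With 1 library left out, between 1 and 3 genes of the list were called, and *Rgs3* was called in all 6 of these fits, *Mmp14* in 3 and *Src* in 0. *Rgs3* alone was called when control replicate 3 or either of *Atp6ap2* iECKO replicates 2 and 3 was left out. The part of fibroblast and mural cells in the values of the signalling genes was not tested.

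Markers of arteries and veins, the vessels that *Efnb2* and *Ephb4* mark, were read in the same libraries. Of all genes tested, 4.97% were called as lower and 3.28% as higher. Of 15 arterial markers other than *Efnb2*, 6 were lower and 0 higher (median log2 fold change -0.38). These were the connexins *Gja5* (-1.15) and *Gja4* (-1.14), the Notch target *Hey1* (-0.80), the Notch ligand *Dll4* (-0.33), and the chemokine receptor *Cxcr4* (-1.33) with its ligand *Cxcl12* (-0.53). The other 9 did not pass, and among them *Sox17* (-0.026), *Fbln5* (-0.070), *Nrp1* (0.00093) and *Dkk2* (0.023) were near 0. Of the 15 arterial markers, 13 had a negative log2 fold change and 2 a positive one. Of 10 tested venous markers, *Nr2f2*, a transcription factor of venous identity, was lower (-0.75, adjusted *P* = 0.0104, limma) and *Prss23* was higher (0.43, adjusted *P* = 0.0212). The arterial markers had summed levels of 117364 to 131860 in controls against 94859 to 107249 in *Atp6ap2* iECKO iLECs, without overlap, and the venous sums overlapped. The share of arterial cells was not measured, and the part of fibroblast and mural cells in these markers was not tested.

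The genes whose pattern over the 6 libraries was most like that of *Efnb2* were *Tshz3*, *Plscr4* and *Pde1c*. Their log2 values, each centred on the gene's own mean, differed from those of *Efnb2* by a root mean square of 0.045, 0.065 and 0.070, the smallest of 11320 genes with a mean of at least 100. *Tshz3* had 668.4, 645.0 and 592.4 in controls and 474.2, 412.0 and 318.2 in *Atp6ap2* iECKO iLECs. For *Ephb4* they were *Cpsf6*, *Cluap1* and *Rab3gap1*, at 0.030, 0.032 and 0.034. Among so many genes, near matches over 6 libraries are frequent.

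**Figure D5:**
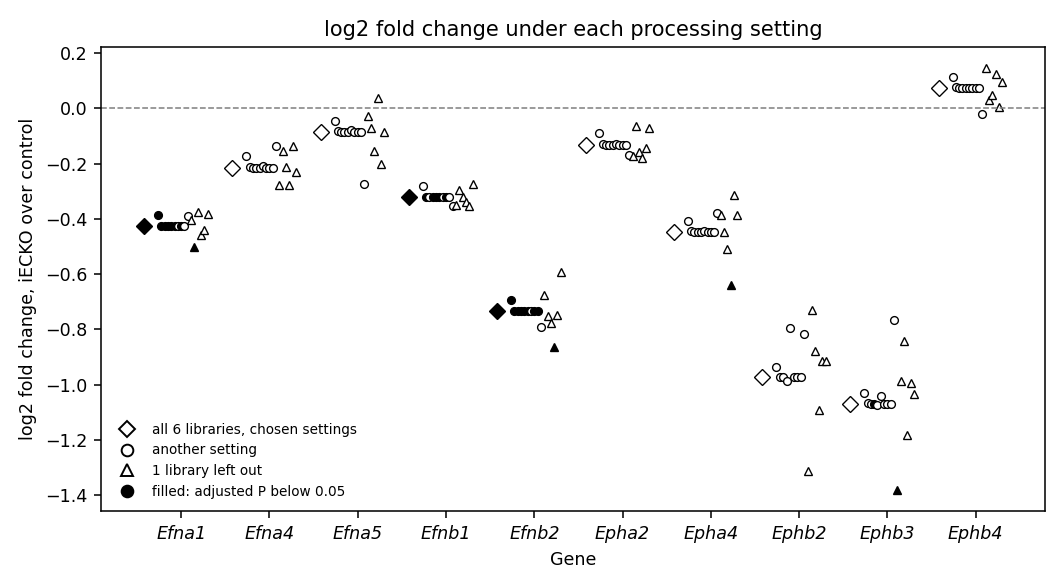
log2 fold change of each of the 10 genes with all 6 libraries and the chosen settings (diamonds), under other processing settings (circles) and with 1 library left out (triangles), filled where the adjusted *P* value is below 0.05. *Efnb2* stays between -0.59 and -0.86, *Efna1* between -0.38 and -0.50 and *Efnb1* between -0.27 and -0.35. *Ephb4* lies between -0.021 and 0.14, and is below 0 only in the fit of the libraries with *Xist*.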

How the data were processed

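The 6 mRNA libraries of iLECs, 3 per genotype, were grouped by their sample titles. As given in the methods, the authors aligned reads to mm10 and quantified genes with BaseSpace tools, of which the annotation is not given in the sources used here. The deposited table holds a signal: estimated counts that the authors scaled per library (the labels say raw counts, but most values are fractional, and the median ratio to the geometric mean over libraries was 1.0036 throughout). Reads could not be recovered, so no count model or counting interval was used, and depth is given only as a ratio between libraries.

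Values were analysed as log2(value + 1), on which scale fold changes of low genes are understated. Genes that reached 10 in 3 or more libraries entered a limma 3.58.1 fit (R 4.3.3, mean-variance trend, no covariate), with Benjamini-Hochberg adjustment over 14456 genes and a threshold of 0.05. On simulated data the fit recovered 80.2% of genes given a log2 fold change of 1 in size and 93.8% of those given 2. The simulated noise was normal, with each gene's spread set by the trend at its level. It held no differences in sex or cell types, so these shares need not hold for the real libraries. Smaller changes, such as those of the 3 called members, were not simulated. Exact permutation tests were two-sided. Positions and exon lengths came from GENCODE M21 (GRCm38, the build of mm10) and promoters from RefSeq. Figures were drawn with matplotlib 3.10.9.

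Named were all 10 genes, the called genes of the family, signalling, arterial and venous lists, and the 3 genes most like *Efnb2* and *Ephb4*. The members and lists were chosen with earlier results of these data known. Alternatives were other scalings, filters, pseudocounts and variance models, a replicate block, *Xist* as covariate or selection, and each library left out.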

Additional observations from a re-analysis of the deposited data

How the results depend on the processing

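The number of the 10 genes called was 3, and it was 0 without limma's mean-variance trend (5 had an unadjusted *P* value below 0.05), 1 with *Xist* as a covariate, 0 in the 4 libraries with *Xist* (4 unadjusted, and 0 of all 14094 genes tested were called there), and 0 to 2 with 1 library left out, where 1.44% to 6.88% of all genes tested were called (8.25% with all libraries). For the other family genes (3), the same 4 settings gave 1, 2, 0 and 0 to 3, and for the signalling genes (3) they gave 1, 3, 0 and 1 to 3. Without the trend 304 genes of all tested were called, against 1193, and with the covariate 767.

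Log2 fold changes kept their direction for *Efna1*, *Efna4*, *Efnb1*, *Efnb2*, *Epha2*, *Epha4*, *Ephb2* and *Ephb3* under every alternative run. Among *Atp6ap2* and the Eph and ephrin genes, calls lost without the trend were *Efna1* (-0.43), *Efnb1* (-0.32), *Efnb2* (-0.73), *Atp6ap2* (-1.22), *Epha1* (-1.24) and *Epha3* (-1.54), with adjusted *P* values from 0.0644 to 0.117. In the libraries with *Xist* they were *Efna1* (-0.39), *Efnb1* (-0.35), *Efnb2* (-0.79), *Atp6ap2* (-1.19), *Epha1* (-1.09), *Epha3* (-1.56) and *Epha8* (-1.51), and with the covariate *Efna1* (-0.43), *Efnb1* (-0.32) and *Epha8* (-1.59). *Efnb1* was also lost with equal totals (-0.28) and no filter (-0.32, adjusted *P* = 0.0569), and *Ephb3* was gained with at least 50 in at least 3 libraries (-1.07, adjusted *P* = 0.048). With 1 library left out the ranges were -0.50 to -0.38 (*Efna1*), -0.35 to -0.27 (*Efnb1*), -0.86 to -0.59 (*Efnb2*), -0.64 to -0.32 (*Epha4*), -1.38 to -0.84 (*Ephb3*), -0.20 to 0.036 (*Efna5*), 0.0045 to 0.14 (*Ephb4*), -1.51 to -1.09 (*Epha1*), -1.83 to -1.29 (*Epha3*), -1.79 to -1.45 (*Epha8*) and -1.54 to -1.0 (*Atp6ap2*). Reversals, all far from the threshold, were *Efna5* without *Atp6ap2* iECKO replicate 1 (0.036), *Ephb4* (-0.021) and *Efnb3* (0.010) in the libraries with *Xist*, *Epha7* with a pseudocount of 10 (-0.0011), and with 1 library left out *Efnb3* (-0.25 to 0.066, with 0.066, 0.049 and 0.012 positive) and *Epha7* (-0.20 to 0.30, with -0.20, -0.077 and -0.092 negative). The cause was not tested.

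Libraries with the same replicate number, after subtracting each genotype's mean, had correlations of 0.252, 0.114 and 0.078. Those with different numbers had -0.208 to 0.1. The 0.1 was between control replicate 3 and *Atp6ap2* iECKO replicate 2, the libraries with little *Xist*. These values do not settle whether the numbers are pairs. The sample titles number the replicates without calling them pairs, and the main fit left the numbers out. With the replicate block 3 of the 10 genes were called (*Efna1*, *Efnb1* and *Efnb2*), 3 other family genes, and 3 signalling genes, of which *Src* was replaced by *Acp1*, and 10.4% of all genes tested were called. *Efnb2* had -0.73 there (adjusted *P* = 0.0123). Precision is limited by 3 libraries per genotype, and the counting error of low genes such as *Ephb2* could not be measured, since depth is known only as a ratio.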
